A study of Mus musculus with 2 samples.

Results

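Bdnf and the genes of neurotrophin signalling measured beside it were read as 6 genes (Bdnf, Ntf3, Ntrk2, Ntrk3, Ngfr and Sort1) of the 32285 genes in the count matrices. The rule lists the genes by name and uses no measured value. RNA was counted in single nuclei of flash-frozen mouse hippocampus with 3′ droplet sequencing. There were 2 groups with 1 library each, so there is no replicate and no test between the groups. Both groups were 5XFAD mice of 8 months, a line with human transgenes carrying familial Alzheimer mutations under the mouse Thy1 promoter, which is active mainly in neurons. The second group was also labelled as a knockout of MR1, the molecule that presents microbial metabolites to MAIT cells, and is called the library labelled MR1 knockout below. Each library pooled tissue of 2 mice, a male and a female, and neither group lacked the transgenes.

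Neurotrophins are small secreted growth factors that neurons make as proforms and release from dense-core vesicles. Bdnf encodes brain-derived neurotrophic factor, whose mature form acts through the receptor tyrosine kinase TrkB (Ntrk2) and which is transcribed in response to neuronal activity. Ntf3 encodes neurotrophin-3, the ligand of TrkC (Ntrk3). Ngfr encodes the p75 receptor, which binds all neurotrophins, and Sort1 encodes sortilin, a sorting receptor that pairs with p75 to bind proneurotrophins and also traffics cargo inside the cell. In the adult hippocampus, granule and pyramidal neurons are the known sources of BDNF, and mossy fibres of the dentate granule neurons carry much of it to CA3.

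In the GENCODE M21 annotation of the mm10 build, Bdnf (ENSMUSG00000048482) lies on the plus strand at chr2:109674700-109727007 and Ntf3 (ENSMUSG00000049107) on the minus strand at chr6:126101412-126166910. Ntrk2 (ENSMUSG00000055254) lies on the plus strand at chr13:58806569-59133970 and Ntrk3 (ENSMUSG00000059146) on the minus strand at chr7:78175959-78738012. Ngfr (ENSMUSG00000000120) lies on the minus strand at chr11:95568818-95587735 and Sort1 (ENSMUSG00000068747) on the plus strand at chr3:108284082-108361511. Tags at the 3′ end do not tell apart the alternative Bdnf promoters. The counts are given per gene, so they also do not separate the full-length and truncated TrkB and TrkC forms. Each value is a sum over transcripts of the gene. Antisense genes overlapped 4 of the genes, and because the strand setting of the counting was not given, reads of the overlapping pairs could be shared. The antisense genes inside Ntrk2 held the most, with 1995 and 1457 UMIs for Gm47423 and 3748 and 2987 UMIs for 4930415C11Rik in the 5XFAD library and the library labelled MR1 knockout.

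RefSeq promoter windows of 300 bases on GRCm38.p6 were at hand for 4 of the 6 genes, 7 of them for Bdnf, 2 for Ntf3 and 1 each for Ngfr and Ntrk2. They were searched on both strands for the cyclic-AMP response element TGACGTCA, its variant TGACGTGA and the E-box CACGTG, the last of which shares the letters ACGTG with the variant. Of these 11 windows, 2 held a match. The window of the start that is known as Bdnf promoter IV, the promoter most studied for its response to activity, holds the variant on the minus strand, beginning 38 bases before the start site. The window of the Ntf3 start at 126166744 holds CACGTG, beginning 231 bases before that start. The variant occurred in 145 of 32851 windows (0.441%), TGACGTCA in 588 (1.79%) and CACGTG in 2349 (7.15%). The 250 bases before the Bdnf promoter IV start are shown here with the match in capitals, above the 250 bases before the first Bdnf start, which held no match. They are shown because activity genes are compared with Bdnf below, and a match in letters is a description only.
Bdnf start at 109692436, chr2:109692186-109692435, plus strand: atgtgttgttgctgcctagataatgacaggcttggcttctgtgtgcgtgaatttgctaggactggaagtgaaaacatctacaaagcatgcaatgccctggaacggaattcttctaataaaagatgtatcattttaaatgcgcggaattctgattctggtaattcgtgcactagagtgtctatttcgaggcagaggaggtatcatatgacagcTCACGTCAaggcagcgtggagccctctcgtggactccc
Bdnf start at 109674700, chr2:109674450-109674699, plus strand: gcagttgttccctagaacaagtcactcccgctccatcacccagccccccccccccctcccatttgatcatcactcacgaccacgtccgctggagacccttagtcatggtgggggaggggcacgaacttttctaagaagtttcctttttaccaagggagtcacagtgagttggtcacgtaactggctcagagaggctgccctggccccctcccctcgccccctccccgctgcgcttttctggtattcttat

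The 2 libraries held 25238 and 26212 barcodes with 106861726 and 85678909 UMIs (unique molecular identifiers, 1 per captured RNA molecule), and 182 barcodes occurred in both (0.721% and 0.694%). After limits of at least 500 genes and under 5% mitochondrial UMIs, and without doublets and mixed clusters, 11967 and 17052 nuclei remained, with a median of 3698 and 2511.5 UMIs. Nuclei were placed in classes by fixed marker genes, and a class name stands for nuclei like that type by those markers. Dentate granule neurons were led by C1ql2, Glis3 and Prox1, CA1 neurons by Galntl6 and Fibcd1, CA2/CA3 neurons by Nectin3, Trps1, Grik4 and Fyb2, and 17.58% and 23.99% of the nuclei stayed unnamed. By Xist and Y-linked UMIs, the 5XFAD female gave 5263 nuclei and the male 3429, and the female and male labelled MR1 knockout 8892 and 3057. The mice did not contribute the same regions: medium spiny neurons (1129 against 4 nuclei) came almost only from the 5XFAD library, where they were 20.2% of the male's nuclei, and an unnamed cluster led by Smoc1 and Otof (cluster 2, 40 against 1912 nuclei) made up 20.3% of the nuclei of the female labelled MR1 knockout. Mr1, the targeted gene, was counted 33 times in 5XFAD nuclei and 65 times in those labelled MR1 knockout, or at 0.591 and 1.17 counts per 1000000 UMIs (CPM), so its ratio was 1.98 (95% counting interval 1.28 to 3.10). Which part of Mr1 was removed is not given in the sources used here, so the tags may lie outside it. The measured RNA shows no loss of Mr1 in the library labelled MR1 knockout, and whether the label holds was not tested.

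Levels below are CPM, summed over the nuclei of a class. Values by mouse leave out the nuclei assigned to neither mouse. Intervals are exact 95% intervals for counting error only and do not hold the spread between mice. A ratio is the library labelled MR1 knockout over 5XFAD, and a gene is called higher or lower when its ratio is past 1.5-fold with at least 50 UMIs over both libraries.

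Bdnf was the gene of the set with the largest difference between the libraries over all nuclei, and dentate granule neurons carried its highest level of the 11 compared classes in both. Over all kept nuclei, Bdnf had 1775 UMIs (31.8 CPM) in the 5XFAD library and 2727 UMIs (49.0 CPM) in the library labelled MR1 knockout, a ratio of 1.54 (1.45 to 1.64). It was the only one of the 6 genes past 1.5-fold, where 8.74% of the 18618 genes tested were called higher and 3.2% lower. All 6 genes had at least 50 UMIs over all nuclei, Ngfr with 50 and in no single class. The call over all nuclei was lost with at least 1000 genes per nucleus (1.49), with TMM scaling (1.41), in males alone (1.29) and under 1% mitochondrial UMIs (1.26). Nuclei of the dentate class were 1468 and 4082, so a ratio over all nuclei also moves with the classes sampled. With the 11 classes weighted equally the Bdnf ratio was 1.53. That mean gives mature oligodendrocytes (26 and 52 Bdnf UMIs) and microglia (8 and 34) the same weight as dentate granule neurons (357 and 1200). It is therefore not a value for neurons alone.

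By class, Bdnf stood at 62.3 CPM (56.0 to 69.1) in dentate granule neurons of the 5XFAD library and at 131 CPM (124 to 139) in those of the library labelled MR1 knockout. CA2/CA3 neurons had 55.0 CPM (50.1 to 60.3) and 35.9 CPM (31.9 to 40.1), the reverse order. CA1 neurons had 34.5 and 37.6 CPM, with overlapping intervals. Of the other excitatory neurons, subicular or near-projecting neurons had 18.4 and 18.7 CPM and deep-layer cortical neurons 11.5 and 20.99 CPM. The 564 upper-layer or entorhinal neurons of the 5XFAD library had 46.5 CPM, and too few such nuclei in the other library allowed no comparison. Inhibitory neurons were low: Sst and Pvalb interneurons had 7.05 and 14.0 CPM, Adarb2 interneurons 7.85 and 12.5 CPM, and Lamp5 interneurons 4.80 and 13.2 CPM. Of the glia, astrocytes had 29.0 and 34.9 CPM, microglia 22.0 and 40.7 CPM and oligodendrocyte precursors 13.2 and 31.5 CPM.

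Mature oligodendrocytes were taken as the class that should lack Bdnf, to show what free RNA in the droplets can give, and their level also differed between the libraries. They held 26 and 52 Bdnf UMIs, or 22.0 CPM (14.4 to 32.2) and 54.2 CPM (40.5 to 71.1). That made a ratio of 2.46 (1.51 to 4.11). Their median depth was 1314 and 962.5 UMIs, well under that of neurons, so Bdnf UMIs per 100 nuclei are given beside the CPM. On that measure oligodendrocytes had 3.25 and 5.65, dentate granule neurons 24.3 and 29.4, CA2/CA3 neurons 39.7 and 18.3, and CA1 neurons 18.7 and 14.1. Sst and Pvalb interneurons had 3.74 and 6.18 and Adarb2 interneurons 3.97 and 4.54 per 100 nuclei, values within the counting intervals of the oligodendrocytes. In the unnamed cluster 17, led by AY036118, Gm42418 and Cmss1 and with a median of 682 and 660.5 UMIs, Bdnf reached 90.2 and 106 CPM but only 6.46 and 7.95 UMIs per 100 nuclei.

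**Figure D1:**
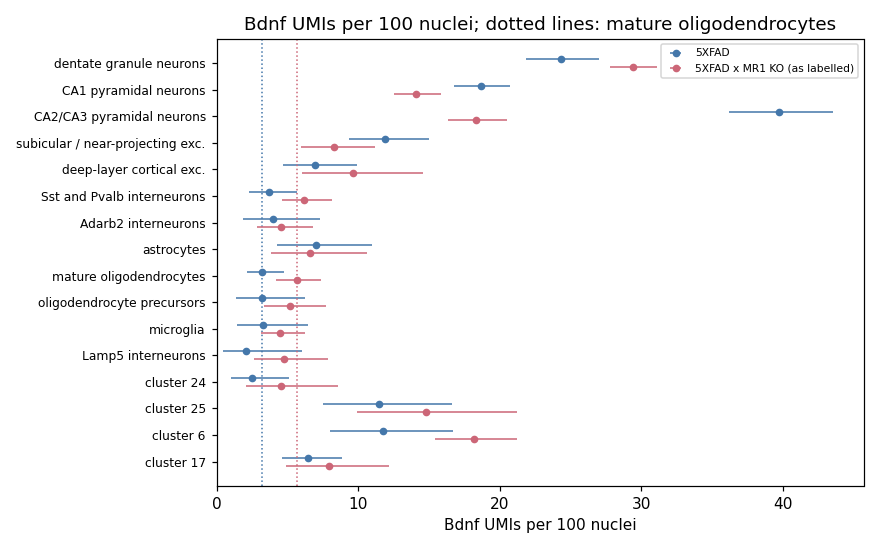
Bdnf UMIs per 100 nuclei (horizontal axis) in 16 classes or clusters of each library, with exact 95% counting intervals as bars and the level of mature oligodendrocytes in each library as a dotted line. CA2/CA3 neurons (39.7 and 18.3) and dentate granule neurons (24.3 and 29.4) stand well above the dotted lines, and the intervals of the 3 interneuron classes hold them.

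Depth also bears on the share of nuclei with a Bdnf UMI. In dentate granule neurons 20.2% and 23.2% of nuclei had one, against 3.25% and 5.65% of oligodendrocytes, at median depths of 3431.5 and 1970.5 UMIs. Thinned to 1000 UMIs per nucleus, the dentate share was 6.48% (5.27 to 7.87) and 11.9% (10.9 to 12.9), and the oligodendrocyte share 2.15% (1.15 to 3.65) and 5.44% (3.48 to 8.05). The thinned shares of CA1 (3.60% and 4.11%) and CA2/CA3 neurons (5.13% and 3.45%) were above the oligodendrocyte share in the 5XFAD library, with overlapping intervals for CA1, and below it in the library labelled MR1 knockout. Of these 3 neuron classes, only dentate granule neurons stood above background in that library by the thinned share. By Bdnf UMIs per 100 nuclei, CA1 (14.1, 12.5 to 15.9) and CA2/CA3 neurons (18.3, 16.3 to 20.5) of that library were above the 5.65 of oligodendrocytes. For pyramidal neurons the place against background therefore depends on the measure.

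The dentate difference in Bdnf sat mainly in 1 of the 4 mice. In dentate granule neurons the level was 62.7 CPM in the 5XFAD female (1194 nuclei, 296 UMIs), 51.8 in the 5XFAD male (135 nuclei, 31 UMIs), 177 in the female labelled MR1 knockout (2123 nuclei, 840 UMIs) and 64.8 in the male labelled MR1 knockout (775 nuclei, 133 UMIs). The female labelled MR1 knockout was thus high, and the other 3 mice lay close together. The ratio was 2.82 (2.47 to 3.23) between the females and 1.25 (0.841 to 1.92) between the males. Dentate nuclei fell in 2 clusters, and cluster 0 held 40.2%, 39.3%, 97.3% and 69.3% of them in the same order of mice. Within cluster 0 alone the Bdnf ratio was 1.67 (1.39 to 2.03), from 87.6 to 147 CPM, and within cluster 8 alone 1.23 (0.974 to 1.54), from 53.7 to 65.9 CPM. The 57 nuclei of the female labelled MR1 knockout in cluster 8 had 111 CPM, and its 2066 nuclei in cluster 0 had 180.5 CPM. Cluster membership, free RNA and the single mouse move with the difference, and their part in it was not tested.

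In CA2/CA3 neurons, the target field of the mossy fibres, the lower Bdnf of the library labelled MR1 knockout was seen in both sexes. The ratio over both mice was 0.652 (0.562 to 0.755), called lower where 1.69% of 12871 genes were, and 4.35% were higher. Levels were 47.3 CPM in the 5XFAD female, 78.9 in the 5XFAD male, 33.9 in the female and 35.0 in the male labelled MR1 knockout, so both 5XFAD mice lay above both others. The ratio was 0.716 (0.570 to 0.894) between females and 0.443 (0.342 to 0.575) between males. Cluster 3, led by Nectin3 and Trps1, held 62.0% and 58.5% of these nuclei in the 5XFAD female and male and 78.3% and 67.4% in the female and male labelled MR1 knockout. The ratio was 0.565 in cluster 3 and 0.875 (0.689 to 1.11) in cluster 11, led by Fyb2 and Stard5. In CA1 neurons the 4 mice, in the same order, had 33.5, 35.2, 34.3 and 37.0 CPM, and neither library stood apart.

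Outside the dentate and CA2/CA3 classes, Bdnf was past 1.5-fold in 3 further compared classes, all at low counts. It was 1.99 (1.18 to 3.48) in Sst and Pvalb interneurons, 1.82 (1.00 to 3.26) in deep-layer cortical neurons and 2.46 in mature oligodendrocytes, with 72, 52 and 78 UMIs over both libraries. In Sst and Pvalb interneurons the ratio was 1.96 (1.03 to 3.96) between females and 0.924 (0.223 to 3.63) between males, the latter from 6 and 5 UMIs. In deep-layer neurons it was 2.44 between females, and the males had too few nuclei for a value. In oligodendrocytes it was 3.81 between females and 3.41 between males, from 5 and 15 and from 3 and 5 UMIs. Pooled over the mice of a library, all 3 were higher in the library labelled MR1 knockout, where 7.08%, 10.3% and 7.97% of genes in those classes were called higher and 2.37%, 4.92% and 3.29% lower. None of the 3 had more than 9.65 Bdnf UMIs per 100 nuclei in either library, and the part of free RNA in these ratios was not tested. Of the 11 classes, 7 had the 50 UMIs a call needs for Bdnf, and 4 had them for Ntf3.

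Ntf3, the other ligand, was lower in dentate granule neurons of the library labelled MR1 knockout while Bdnf was higher. Dentate granule neurons were its highest compared class, with 58.4 CPM (52.3 to 65.0, 335 UMIs) in the 5XFAD library and 26.0 CPM (22.8 to 29.5, 238 UMIs) in the other. The ratio was 0.445 (0.375 to 0.527), in a class where 4.49% of 12806 genes were called lower and 12.4% higher. The share of nuclei with a Ntf3 UMI was 18.3% and 5.51%, against 0.999% and 1.09% of oligodendrocytes, and thinned to 1000 UMIs it was 5.72% (4.58 to 7.04) and 2.60% (2.11 to 3.15).

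Again the mice were not alike. Ntf3 in dentate granule neurons was 62.7 CPM in the 5XFAD female (296 UMIs), 45.1 in the 5XFAD male (27 UMIs), 10.96 in the female labelled MR1 knockout (52 UMIs) and 44.8 in the male labelled MR1 knockout (92 UMIs). Only the female labelled MR1 knockout was low, and the males were side by side. The ratio was 0.175 (0.127 to 0.235) between females and 0.994 (0.641 to 1.59) between males. Within clusters the ratio was 0.505 in cluster 0 and 0.615 in cluster 8, and in both the female labelled MR1 knockout had the lowest level of the 4 mice (10.4 and 20.6 CPM). In cluster 0 the 5XFAD male, with only 2 UMIs, was next at 16.0 CPM. Bdnf high and Ntf3 low therefore met in the dentate nuclei of the same mouse.

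**Figure D2:**
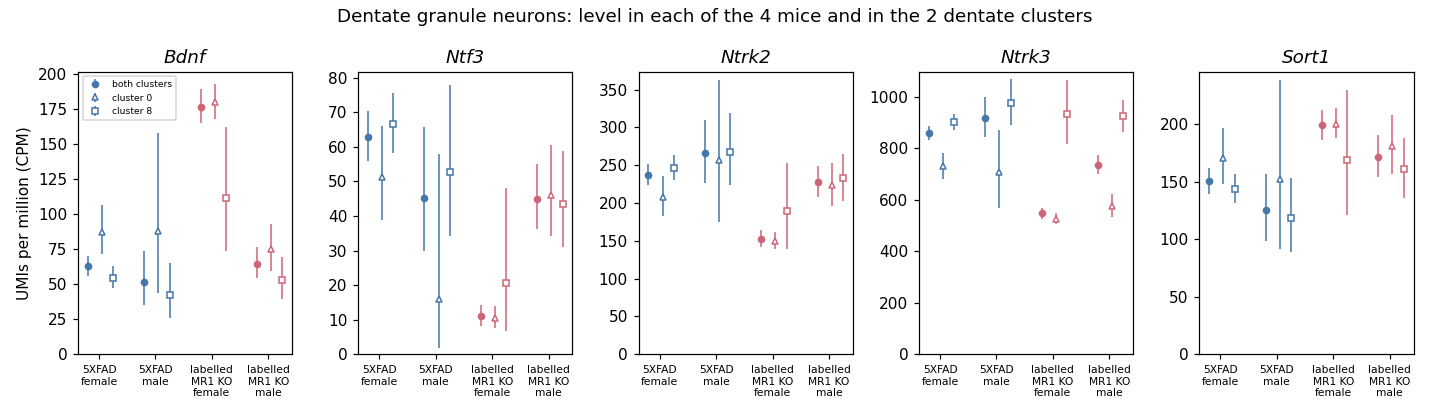
CPM (vertical axis) of Bdnf, Ntf3, Ntrk2, Ntrk3 and Sort1 in dentate granule neurons of the 4 mice, for both clusters together (filled circles) and for cluster 0 (triangles) and cluster 8 (squares) alone, with exact 95% counting intervals. The female labelled MR1 knockout stands apart, at 177 CPM for Bdnf and 10.96 CPM for Ntf3, while for these 2 genes the male of the same library lies near both 5XFAD mice.

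Elsewhere Ntf3 was low. Lamp5 interneurons had 22.4 and 25.5 CPM (14 and 29 UMIs) and Sst and Pvalb interneurons 9.07 and 9.36 CPM. Of the clusters with fewer than 50 nuclei in 1 of the libraries, cluster 20 (Zic1, Zic4 and Prkcd; 597 against 43 nuclei) had 24.7 CPM in 5XFAD and cluster 2 had 25.8 CPM in the library labelled MR1 knockout, close to its dentate granule neurons. Pyramidal neurons as classes were near the oligodendrocyte background of 7.62 and 10.4 CPM, with 7.63 and 5.70 CPM in CA1 and 7.57 and 8.97 CPM in CA2/CA3. Inside these classes Ntf3 was uneven: cluster 11 of CA2/CA3 had 17.04 and 25.06 CPM, against 1.57 and 2.63 in cluster 3, and cluster 15 of CA1 (led by C1qtnf7 and Dcn) had 22.2 and 9.09 CPM, against 1.67 and 4.72 in cluster 1.

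Ntrk2, the TrkB receptor of BDNF, had a different order of classes, with interneurons and astrocytes at the top and granule neurons low. Lamp5 interneurons had 917 and 771 CPM, Sst and Pvalb interneurons 712 and 691 CPM, and astrocytes, which mainly make the truncated form, 555 and 729 CPM. Next came deep-layer neurons (512 and 344 CPM) and Adarb2 interneurons (474 and 483 CPM), and, with levels read in the 5XFAD library only, upper-layer or entorhinal neurons (630.2 CPM) and cluster 20 (624 CPM). CA1 neurons had 335 and 369 CPM, CA2/CA3 neurons 266 and 255 CPM, and dentate granule neurons 243 and 179.7 CPM. Microglia, taken as the class without the gene, had 145 and 118 CPM, with a UMI in 19.3% and 10.9% of nuclei, against 53.4% and 30.7% of dentate granule neurons. Thinned to 1000 UMIs these shares were 14.3% and 7.81% in microglia and 20.7% and 15.4% in dentate granule neurons.

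Over all nuclei Ntrk2 was 404 CPM (22573 UMIs) in 5XFAD and 323 CPM (17960 UMIs) in the library labelled MR1 knockout, a ratio of 0.799 (0.783 to 0.815). With the 11 compared classes weighted equally it was 0.958. That mean leaves out the unnamed and uncompared nuclei, and the part of the classes sampled in the difference was not tested. In no compared class was Ntrk2 past 1.5-fold, although deep-layer neurons passed it with TMM scaling (0.603) and dentate granule neurons in females alone (0.642). The classes without a call for any of the 6 genes had a background of 7.44% higher and 2.26% lower in Adarb2 interneurons, 8.4% and 9.6% in astrocytes, 7.9% and 3.37% in oligodendrocyte precursors, 8.86% and 5.79% in microglia, 6.26% and 1.75% in subicular or near-projecting neurons and 4.45% and 2.08% in CA1 neurons. The ratio was lowest in deep-layer neurons at 0.673 (0.597 to 0.756) and dentate granule neurons at 0.740 (0.689 to 0.796), and highest in astrocytes at 1.31 (1.13 to 1.53). Deep-layer neurons were 5.40% of the nuclei of the 5XFAD male but 0.622% of those of the male labelled MR1 knockout. Between females their Ntrk2 ratio was 0.790 (0.675 to 0.923). Dentate levels were 237 and 266 CPM in the 5XFAD female and male and 152 and 228 CPM in the female and male labelled MR1 knockout, the female of the latter again lowest.

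Ntrk3, the TrkC receptor of neurotrophin-3, was spread over excitatory neurons and Sst and Pvalb interneurons. Dentate granule neurons had 848 and 616 CPM, CA1 neurons 670.4 and 639 CPM, CA2/CA3 neurons 635 and 627 CPM, and Sst and Pvalb interneurons 694 and 520.3 CPM. The unnamed cluster 25, led by Gpc3 and Cped1, had 844 and 935 CPM. Of the glia, oligodendrocyte precursors had 433 and 466 CPM, astrocytes 203 and 144 CPM, microglia 102 and 116 CPM and mature oligodendrocytes 56.7 and 64.6 CPM. Subicular or near-projecting neurons, at 557 and 457 CPM, were not of 1 kind: cluster 27 (Vwc2l and Tshz2) had 62.7 and 63.1 CPM, near the level of oligodendrocytes, and cluster 16 (Fn1) had 681 and 561 CPM.

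Between the libraries Ntrk3 was 590.3 and 556 CPM over all nuclei, a ratio of 0.942 (0.928 to 0.957), and no compared class was past 1.5-fold with both mice. The lowest ratios were 0.707 (0.522 to 0.951) in astrocytes, 0.726 (0.698 to 0.754) in the dentate class and 0.749 (0.704 to 0.798) in Sst and Pvalb interneurons. The astrocyte ratio was 0.828 (0.497 to 1.38) between females and 1.07 (0.431 to 2.44) between males, so neither sex alone showed it beyond counting error. In dentate granule neurons the levels were 859 and 919 CPM in the 5XFAD female and male and 547 and 735 CPM in the female and male labelled MR1 knockout, so both mice of that library lay below both others. Cluster 0 alone had a ratio of 0.764 and cluster 8 alone 1.04. In Sst and Pvalb interneurons the difference was between the females (760.2 against 467 CPM) and not the males (606 against 610.1 CPM).

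**Figure D3:**
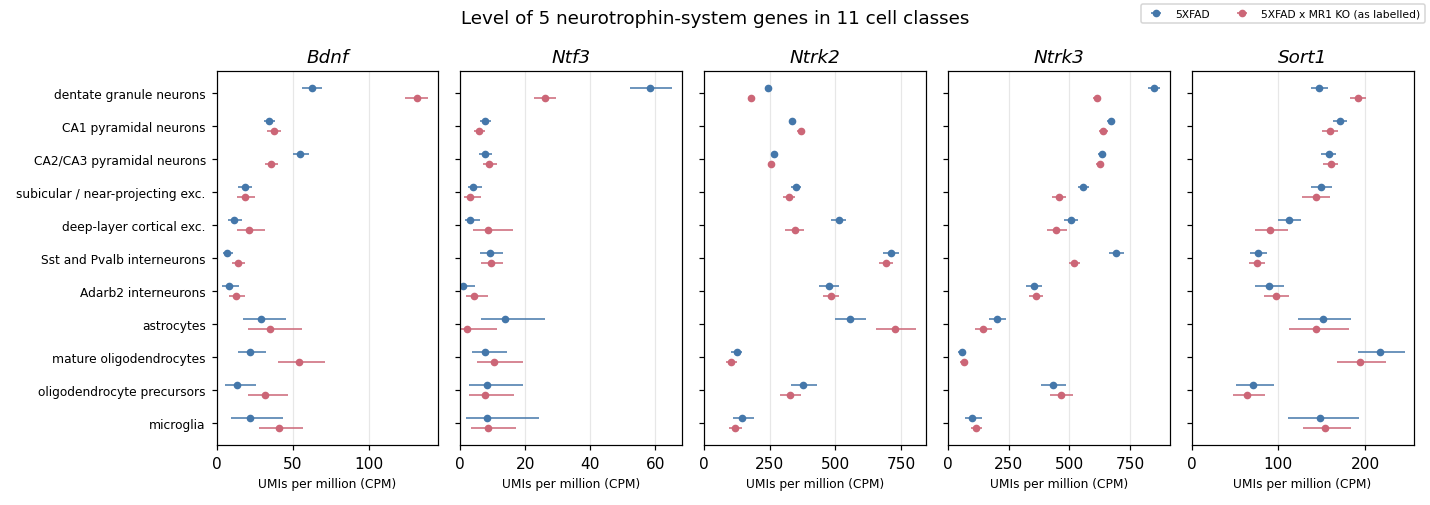
CPM (horizontal axes, each from 0) of Bdnf, Ntf3, Ntrk2, Ntrk3 and Sort1 in the 11 compared classes of the 5XFAD library and the library labelled MR1 knockout, with exact 95% counting intervals. By CPM, Bdnf and Ntf3 are highest in dentate granule neurons, Ntrk2 in Sst and Pvalb interneurons and astrocytes, and Sort1 in mature oligodendrocytes. The intervals of Sort1 in oligodendrocytes and dentate granule neurons overlap in the library labelled MR1 knockout. So do those of Bdnf in dentate and CA2/CA3 neurons of the 5XFAD library.

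Sort1 was counted in every compared class. Mature oligodendrocytes had 218 and 194 CPM, CA1 neurons 171 and 159.7 CPM, CA2/CA3 neurons 158 and 160.1 CPM, and dentate granule neurons 147 and 191 CPM. In the library labelled MR1 knockout the intervals of oligodendrocytes and dentate granule neurons overlapped. Oligodendrocyte nuclei were shallow, with 257 and 186 Sort1 UMIs in 801 and 920 nuclei, against 1730 and 1177 in 1865 and 1963 CA1 nuclei. Their high place therefore holds for CPM and not for UMIs per nucleus. Sst and Pvalb interneurons (76.6 and 75.1 CPM) and oligodendrocyte precursors (70.7 and 64.4 CPM) were lowest. Over all nuclei the ratio was 1.01 (0.978 to 1.04), from 7700 and 7740 UMIs. The dentate ratio of 1.30 (1.20 to 1.41) was short of 1.5-fold but was seen in both sexes, at 1.32 between females (150.5 and 199 CPM) and 1.37 between males (125 and 172 CPM). The median gene of that class had a log2 ratio of 0.14.

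Ngfr was close to the floor of detection. It had 29 UMIs (0.519 CPM) over all nuclei of the 5XFAD library and 21 (0.378 CPM) in the other, a ratio of 0.727 (0.394 to 1.32), and at most 6 UMIs in any class or cluster. In microglia it had 0 UMIs in both libraries, which by the limit of 3 UMIs set for a count of 0 allows up to 8.23 and 3.59 CPM. No order of classes can be read from such counts. Cholinergic neurons of the basal forebrain are the known site of p75 in the brain.

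The orders above are firm only in broad steps. Over the 16 classes and clusters with at least 50 nuclei in each library there are 15 pairs of neighbours in each order, and the intervals of neighbours overlapped in 14 and 15 pairs for Bdnf, 14 and 15 for Ntf3, 11 and 11 for Ntrk2, 10 and 10 for Ntrk3 and 15 and 14 for Sort1. Across classes, Bdnf and Ntrk2 levels (log2 of CPM + 1, 11 classes) had a Pearson r of −0.50 and −0.62, Bdnf and Sort1 0.71 and 0.67, and Ntrk2 and Ntrk3 0.61 and 0.44 in the 5XFAD library and the other. These are descriptions over classes of the same libraries.

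**Figure D4:**
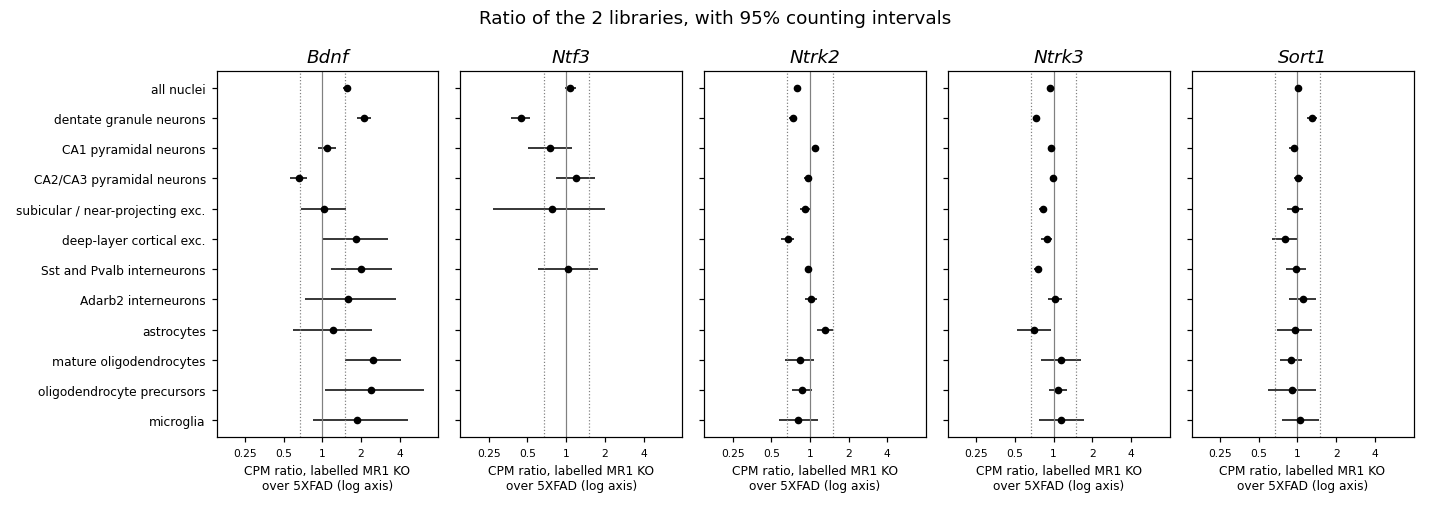
CPM ratio of the library labelled MR1 knockout over 5XFAD (log axis) for 5 genes over all nuclei and in the 11 compared classes, with exact 95% counting intervals, dotted lines at 1.5-fold, and points only where both libraries together had at least 20 UMIs. Bdnf in dentate granule neurons (2.11) and Ntf3 there (0.445) lie past the dotted lines in opposite directions, and Ntrk2 and Ntrk3 stay within them in every class.

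Because Bdnf is an activity gene, its level was compared between nuclei with and without a UMI of any of 10 immediate early genes (Arc, Fos, Fosb, Junb, Egr1, Egr3, Egr4, Nr4a1, Nr4a3 and Npas4). The UMIs of these 10 genes were read after thinning each nucleus to 1000 UMIs, while the CPM are from all UMIs of the nuclei. This split was chosen after the data were seen, and the nuclei of 1 library are not replicates. In CA2/CA3 neurons Bdnf was 52.0 CPM (46.8 to 57.5) without and 73.8 CPM (58.8 to 91.5) with such a UMI in the 5XFAD library, and 31.2 (27.4 to 35.4) and 76.4 CPM (59.2 to 97.1) in the library labelled MR1 knockout. In CA1 neurons it was 33.0 (29.3 to 36.9) and 47.0 CPM (35.0 to 61.8) in the 5XFAD library, and 33.4 (29.2 to 38.2) and 69.6 CPM (52.6 to 90.4) in the other. By CPM the intervals were apart in CA2/CA3 neurons of both libraries and in CA1 neurons of the library labelled MR1 knockout. By the share of thinned nuclei with a Bdnf UMI, the intervals overlapped in both classes of both libraries. In CA2/CA3 neurons of the library labelled MR1 knockout that share was 3.04% (2.23 to 4.05) without and 6.90% (3.61 to 11.7) with an activity-gene UMI. Dentate granule neurons without and with such a UMI had 61.3 and 80.5 CPM (5XFAD) and 128 and 155 CPM (labelled MR1 knockout), with overlapping intervals in both. The nuclei with such a UMI were few: 157 and 174 in CA2/CA3, 220 and 235 in CA1, and 99 and 306 in the dentate class. Subicular or near-projecting neurons without and with one had Bdnf at 18.0 and 23.0 CPM (5XFAD) and 19.1 and 14.5 CPM (labelled MR1 knockout). Sst and Pvalb interneurons had 7.54 and 0 CPM and 14.0 and 15.5 CPM. The intervals overlapped in these classes as well.

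Ntrk2 was also higher in CA1 and CA2/CA3 nuclei with such a UMI, with overlapping intervals in CA1 neurons of the 5XFAD library. It was 339 CPM (325 to 354) without and 613 CPM (560 to 669) with an activity-gene UMI in CA1 neurons of the library labelled MR1 knockout, and 330.5 (319 to 343) and 369 CPM (334 to 407) in those of the 5XFAD library. In CA2/CA3 neurons it was 256 (245 to 268) and 332 CPM (299 to 367) in the 5XFAD library and 247 (236 to 259) and 326 CPM (290 to 366) in the other. In dentate granule neurons it was 241 (228 to 255) and 265 CPM (213 to 326) in the 5XFAD library and 181 (172 to 191) and 155 CPM (126 to 188) in the other, with overlapping intervals in both. By the share of thinned nuclei with a Ntrk2 UMI, the intervals were apart only in CA1 neurons of the library labelled MR1 knockout. There it was 24.9% (22.9 to 27.1) without and 37.0% (30.8 to 43.5) with an activity-gene UMI. Ntrk3 was higher in the same CA1 and CA2/CA3 nuclei too, with overlapping intervals in each pair. In CA1 neurons of the library labelled MR1 knockout it was 632 without and 705 CPM with such a UMI. In 5XFAD, Ntrk3 was 543 and 734 CPM in subicular or near-projecting neurons and 707 and 513 CPM in Sst and Pvalb interneurons. In the library labelled MR1 knockout both went the other way, at 466 and 341 CPM and at 519 and 550 CPM, with overlapping intervals. The subicular or near-projecting class holds clusters of unlike Ntrk3 level, and the part of that mix was not tested. For Bdnf, CA2/CA3 nuclei with activity-gene UMIs had 73.8 and 76.4 CPM in the 2 libraries, and those without had 52.0 and 31.2 CPM.

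**Figure D5:**
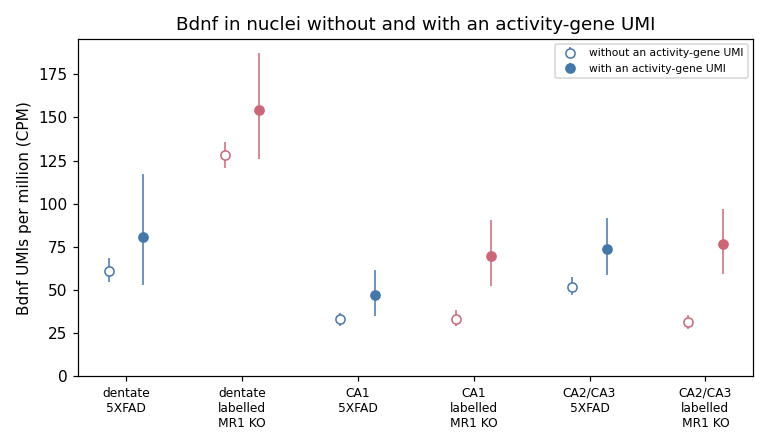
Bdnf CPM (vertical axis) in dentate, CA1 and CA2/CA3 neurons of each library, in nuclei without (open) and with (filled) a UMI of any of 10 activity genes, with exact 95% counting intervals. The filled points lie higher in all 6 pairs, and their intervals are apart from the open ones in CA2/CA3 of both libraries (52.0 and 73.8, 31.2 and 76.4 CPM) and CA1 of the library labelled MR1 knockout. By the share of thinned nuclei with a Bdnf UMI, which is not drawn, the intervals overlap in every pair.

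The other genes of the pathway were read in 8 fixed lists. In the list of neurotrophin ligands 3 of 4 genes had 50 UMIs or more, with 1 higher (Bdnf) and none lower, and in the list of Trk receptors 2 of 3, with none past 1.5-fold and a median log2 ratio of −0.20. None of the 6 receptors of the p75 and VPS10P list was past it over all nuclei (median −0.14). Of 12 p75 partners and effectors 1 was higher, the Nogo receptor Rtn4r (27.7 to 42.0 CPM, median 0.24). For comparison the median log2 ratio of all 18618 genes was 0.13, and 8.74% of them were called higher and 3.2% lower.

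Genes of proneurotrophin cleavage and dense-core release included 3 higher of 17 tested and none lower over all nuclei (median 0.09), beside 8.74% higher and 3.2% lower among all genes. These were Chgb, a granin of the vesicle core (189 to 302 CPM, 1.59-fold), Hap1, a transport adaptor that binds proBDNF (76.6 to 126 CPM, 1.64-fold), and Plat, the tissue plasminogen activator (15.8 to 25.3 CPM, 1.60-fold). Of 31 Trk adaptors and signalling genes 2 were higher, Slitrk3 and the kinase ERK1 (Mapk3), at 1.52 and 1.60-fold, and none lower (median 0.11), a smaller share than the 8.74% of all genes. Of 17 regulators of Bdnf transcription the activity-dependent factor Npas4 was lower, from 5.82 to 2.79 CPM (0.479, 0.393 to 0.581), and none higher (median 0.10). TMM scaling lowers each log2 ratio over all nuclei by 0.13, which is more than the margin by which Rtn4r, Chgb, Plat, Slitrk3 and Mapk3 passed 1.5-fold.

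Activity and TrkB response genes were more often lower than higher over all nuclei, and differed between classes. Of 18, 4 were lower and 1 higher, with a median log2 ratio of −0.28, against 3.2% lower and 8.74% higher among all genes. Homer1 went from 193 to 125 CPM (0.647), Nr4a1 from 16.0 to 9.69 CPM (0.605) and Egr1 from 18.2 to 9.03 CPM (0.495), and Nptx2 from 6.45 to 9.89 CPM (1.53). Nptx2 passed 1.5-fold by less than the 0.13 by which TMM scaling lowers each log2 ratio. Values over all nuclei also move with the classes sampled. Medium spiny neurons were 1129 and 4 nuclei and upper-layer or entorhinal neurons 564 and 24, and the part of this mix was not tested. In deep-layer cortical neurons 5 of the 8 tested were lower and 2 higher (median −1.38), where 4.92% of genes were called lower, with Homer1 at 313 and 112 CPM. Few deep-layer nuclei came from the male labelled MR1 knockout, and the part of the mice sampled was not tested. In CA2/CA3 neurons 1 of 13 was lower (Egr1, 0.465) and 1 higher (Dusp6, 1.64), where 1.69% of genes were called lower and 4.35% higher. There 1 of 16 Bdnf regulators was lower (Npas4, 0.502) and none higher, and 1 of 16 cleavage and release genes was lower, the proprotein convertase Pcsk1 (23.6 to 14.9 CPM, 0.631). With at least 200 UMIs required, no activity gene and no Bdnf regulator was called in CA2/CA3 neurons. In Sst and Pvalb interneurons 3 of 6 activity genes were higher and none lower (median 0.42), where 7.08% of genes were called higher: Vgf (75.9 to 144 CPM, 1.90), Inhba (2.58) and Spry4 (5.37 to 10.7 CPM). In CA1 neurons none of 14 was lower and 1 was higher, Nptx2 at 1.54, where 4.45% of genes were called higher.

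Sorting receptors related to sortilin also differed in dentate granule neurons. Of 5 tested in that list 2 were higher and 1 lower, where 12.4% of genes were called higher and 4.49% lower. Sorcs1 was higher (17.6 to 90.6 CPM, 5.14-fold, 4.18 to 6.39), Sorcs3 was higher (73.2 to 144 CPM, 1.96-fold) and Sorcs2, a receptor for proBDNF with p75, was lower (90.0 to 35.0 CPM, 0.388-fold). By mouse Sorcs1 was 18.2 and 15.03 CPM in the 5XFAD female and male and 149 and 17.1 CPM in the female and male labelled MR1 knockout. Sorcs2 was 92.6 and 71.8 CPM and then 20.6 and 58.0 CPM, and Sorcs3 was 72.5 and 65.2 CPM and then 228 and 43.4 CPM. As with Bdnf and Ntf3, it was the female labelled MR1 knockout that stood apart for all 3. Sorcs1 was also higher in Sst and Pvalb interneurons (37.6 to 210.0 CPM, 5.58-fold), deep-layer neurons (82.3 to 155 CPM, 1.88-fold), CA1 neurons (65.2 to 109.5 CPM, 1.68-fold) and CA2/CA3 neurons (5.41 to 8.38 CPM, 1.55-fold, from only 45 and 71 UMIs).

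The remaining dentate lists were mixed, beside 12.4% of genes higher and 4.49% lower in that class. Of 15 cleavage and release genes 3 were higher, Chgb (165 to 346 CPM), Scg2 (136 to 211 CPM) and Plat, and none lower. Of 27 Trk adaptors 4 were higher, led by Pik3r1, a regulatory subunit of PI3-kinase (16.7 to 47.8 CPM, 2.86-fold), and 2 lower, Gab2 (0.571) and the adaptor Shc3 (14.0 to 3.50 CPM, 0.251). Of 11 p75 partners 2 were higher and 1 lower, of 16 Bdnf regulators 2 were higher (Crtc1, a CREB coactivator, and Rest) and 1 lower (Hdac1), and of 11 activity genes Nptx2 and Egr3 were higher and Egr4 and Nr4a1 lower. Chgb was 161 and 187 CPM in the 5XFAD female and male and 422 and 231 CPM in the female and male labelled MR1 knockout. Pik3r1 was 16.96, 21.72, 60.46 and 28.75 CPM in the same order. Shc3 was 12.7, 20.0, 2.53 and 3.90 CPM, so for Shc3 both mice of that library were low.

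Among 11465 genes, those whose class pattern was most like that of Bdnf (Pearson r of log2 of CPM + 1 over the 11 classes, the lower of the 2 libraries ranking them) were Acvr1c (0.921 and 0.916), the activity-induced neuritin gene Nrn1 (0.898 and 0.881) and Icam5, an adhesion molecule of forebrain excitatory neurons (0.866 and 0.919). Most like Ntf3 were Ccdc33 (0.757 and 0.854) and Gm44724 (0.747 and 0.747). Most like Ntrk2 was Gm47423 (0.921 and 0.926), the antisense gene inside it, followed by Gm15520 and 9630014M24Rik. Fndc9 (0.961 and 0.979), Unc79 and Fam155a were most like Ntrk3. For Sort1 they were Spef2 (0.829 and 0.837), Mast3 and Sorl1, another VPS10P receptor (0.790 and 0.822). For Ngfr they were Mkrn2, Clcn6 and Daam1, at too few Ngfr UMIs to be read.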

How the data were processed

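Nuclear RNA of 2 libraries was counted. The deposited values are raw UMI counts per gene and barcode; Cell Ranger 7.0.0 wrote them, per the file headers. The build mm10 and Seurat appear in the submitters' processing notes. No source used here gives the intron and strand settings. Nuclei were kept with at least 500 genes and under 5% mitochondrial UMIs (the limit removed 35.8% of barcodes in 5XFAD and 8.92% in the other library). Scrublet scores set doublets at 0.8% per 1000 nuclei (20.2% and 21.0% left out; its automatic threshold marked 6.43% and 2.65%). Clustering used scanpy 1.11.5 and scikit-learn 1.9.0 (2500 variable genes without the 6 genes, the list genes and sex or mitochondrial genes, 40 components, 20 neighbours) and leidenalg 0.10.2 at resolution 1.5, which gave 41 clusters: 25 named from at least 3 fixed markers, 10 unnamed, and 6 mixed (Xist and Y-linked UMIs together in 15% or more of the nuclei), which were left out with 330 and 543 nuclei. At least 2 Xist UMIs marked the female and 1 Y-linked UMI the male. A class was compared where both libraries held 200 nuclei or more of it.

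Summed UMIs were scaled to CPM. Intervals are exact Poisson (levels), Clopper-Pearson (shares) and conditional binomial (ratios), from scipy 1.17.1, and cover counting error only. The ratio step was tested on simulated data. With 1 library per group no p-value was computed. TMM factors came from edgeR 4.0.16 as an alternative. Named genes were the 6 genes where at least 20 UMIs were present, up to 4 genes per list past 1.5-fold by UMI number, the 3 most like genes per member (at least 200 UMIs and 20 CPM in a class), Mr1 and class markers; some named genes are not reported here. The members, lists and markers were chosen with earlier results of these data known. Of 32285 gene IDs, 32158 matched GENCODE M21.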

Additional observations from a re-analysis of the deposited data

Results flagged for a closer look

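In 5 results the female and male mice lay on opposite sides of a ratio of 1, each with a counting interval beyond 1. The difference between the sexes was not tested, since each sex of a group is 1 mouse. Ntf3 over all nuclei had a ratio of 0.742 (0.650 to 0.847) between females and 1.68 (1.34 to 2.11) between males. In CA2/CA3 neurons Ntf3 had 2.05 (1.28 to 3.31) between females and 0.522 (0.286 to 0.953) between males. Ntrk2 in Adarb2 interneurons had 1.17 (1.02 to 1.35) and 0.748 (0.594 to 0.944). Ntrk3 over all nuclei had 0.858 (0.840 to 0.876) and 1.06 (1.03 to 1.09), and Sort1 over all nuclei 0.901 (0.862 to 0.941) and 1.23 (1.16 to 1.31). With the classes weighted equally, the ratios of Ntf3 were 0.657 between females and 1.39 between males, those of Ntrk3 0.887 and 0.871, and those of Sort1 1.01 and 1.102. Ntf3 stayed on opposite sides of 1 in this weighting, but the female values were over 11 classes and the male values over 10. The male Ntf3 value of 1.39 also gives full weight to glia with few UMIs. These were 0 and 2 UMIs in oligodendrocyte precursors (0 and 24.7 CPM) and 0 and 1 in microglia (0 and 18.9 CPM). Astrocytes had 2 and 0 UMIs and mature oligodendrocytes 1 and 0. The male side of 1 is therefore not firm, and the part of the nucleus mix in the 3 results was not tested. Dentate granule neurons were 22.7% of nuclei in the 5XFAD female and 3.94% in the 5XFAD male, and 23.9% and 25.4% in the female and male labelled MR1 knockout.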

How the results depend on the processing

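No paired analysis was possible because each group has 1 library, and for the same reason no replicate could be left out. Over all nuclei, the Bdnf ratio (1.54) was 1.26 under 1% mitochondrial UMIs, 1.29 in males, 1.41 with TMM and 2.05 after thinning. Ntf3 was 0.742 in females and 1.68 in males. Ntrk2 was 0.783 under 1% mitochondrial UMIs, 0.868 with no mitochondrial limit, 0.932 in females, 0.737 in males and 0.731 with TMM. Ntrk3 was 0.962 at 1000 genes or more, 0.925 under 1% mitochondrial UMIs, 1.05 without that limit, 0.858 in females, 1.06 in males and 0.862 with TMM. Ngfr was 0.364 in males and 1.94 after thinning, and Sort1 0.901 in females, 1.23 in males and 0.923 with TMM. With classes weighted equally, Bdnf was 1.97 in females (1.53 in both), Ntf3 0.628 at 1000 genes and 0.657 in females (0.736), and Ngfr 0.373 at 1000 genes, 0.627 with doublets, 0.222 in females, 0.372 thinned and 0.436 at resolution 1.0 (0.490). The cause was not tested. Over all nuclei 32 of the alternative values stayed within the interval, and within classes 294 stayed and 78 moved; no called ratio from at least 20 UMIs changed sign, while that of Bdnf in Sst and Pvalb interneurons, from 6 and 5 UMIs, was 0.924 in males. Counts of list genes past the fold stayed within 1.5 times in 103 and moved in 89 with a limit of 200 UMIs or a 2-fold limit. TMM lowers log2 ratios by 0.13 over all nuclei and 0.10 in dentate granule neurons. The class highest for Bdnf stayed dentate granule neurons in 10 of 12 settings and libraries, and CA2/CA3 neurons were higher in 5XFAD under 1% mitochondrial UMIs and in its male. Values for single clusters were added after seeing the data. Depth limits Ngfr everywhere, and Bdnf and Ntf3 in glia and interneurons.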
